A study of Mus musculus with 2 samples.

Results

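Among cells dissociated from uninjured L4 and L5 dorsal root ganglia (DRGs), 294 cells, 126 in replicate 1 and 168 in replicate 2, were fibroblasts with transcripts of *Smoc2*, *Ccl11*, *Gpc3* and *Tgfbi*, called *Smoc2* fibroblasts here. They were chosen by a set of limits on the counts of 20 genes, out of 16346 barcodes (8162 and 8184) with over 300 genes, at least 2000 unique molecular identifiers (UMIs, each standing for a captured transcript) and at most 22% mitochondrial UMIs. A fibroblast had at least 5 UMIs of *Col1a1* and *Pdgfra* together per 10000, under 30 of the satellite glial gene *Fabp7* per 10000, and at most 2 UMIs each of *Ncmap*, *Scn7a*, *Rgs5*, *C1qa* and *Flt1*, which mark Schwann cells, mural cells, macrophages and endothelium. *Smoc2* fibroblasts also had under 3 UMIs of the perineurial genes *Slc2a1*, *Itgb4*, *Cldn1* and *Perp*, and their *Smoc2*, *Ccl11*, *Gpc3* and *Tgfbi* UMIs summed to at least 4 and to at least 2 times the sum of *Igf2*, *Slc4a10*, *Sfrp4* and *Bnc2*. The study profiled lumbar DRGs by single-cell RNA sequencing as a first step in asking how endothelin signaling between cells bears on axon regeneration. Its 2 samples, replicates 1 and 2, share every condition: naive C57BL/6 female mice of 3 months, with no other genotype or treatment named and the number of animals per sample not stated, so all comparisons run between kinds of cells within the samples. The ganglia were dissociated with papain and collagenase at a warm temperature and live cells were sorted before capture. *Smoc2* fibroblasts were 1.54% of the barcodes in replicate 1 (exact binomial 95% interval 1.29 to 1.84%) and 2.05% in replicate 2 (1.76 to 2.38%), where the intervals cover counting error only.

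Fibroblasts of peripheral nerves and ganglia build the connective tissue around axons and cell bodies. They lie in nested compartments: the epineurium outside, the perineurium, whose flat cells form a diffusion barrier with tight junctions, and the endoneurium, where scattered fibroblasts sit among axons and Schwann cells. Fibroblasts secrete collagens and proteoglycans, supply basement membrane components, carry lipids and, when stimulated, release chemokines that call leukocytes. Background on the genes of the rule fits these roles: *Smoc2* encodes a matricellular calcium-binding protein, *Ccl11* the chemokine eotaxin, *Gpc3* the heparan sulfate proteoglycan glypican 3, and *Tgfbi* an adhesive matrix protein induced by TGF-beta.

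Sequences upstream of 5 genes are given before their values, because these genes carry the descriptions that follow: *Apod* is the most abundant marker, *Cdkn2a* and its neighbor *Cdkn2b* set these cells apart from the other fibroblasts, and *Cxcl1* and *Il6* were far higher in cells with many immediate early transcripts than in cells with few. Each line holds the 250 bases before the annotated start from RefSeq (GRCm38.p6), written 5′ to 3′ on the strand of the gene. Capitals mark matches, on either strand, to TGANTCA (AP-1), to GGGCGG (Sp1) or to the NF-kappaB motif, in which the fifth base is free and the others are those in capitals in *Cxcl1* and *Il6*. Among 32851 such windows, 6.75% held the AP-1 motif, 0.356% the NF-kappaB motif and 32.7% the Sp1 motif, and a match describes the letters only.
Apod (chr16:31314809-31315058, minus strand): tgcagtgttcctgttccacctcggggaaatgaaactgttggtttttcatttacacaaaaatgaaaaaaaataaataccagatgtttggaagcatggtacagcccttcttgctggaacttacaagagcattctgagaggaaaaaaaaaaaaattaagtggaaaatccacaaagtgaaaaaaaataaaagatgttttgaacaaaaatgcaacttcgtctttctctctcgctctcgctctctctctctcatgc
Cdkn2a, first start (chr4:89294620-89294869, minus strand): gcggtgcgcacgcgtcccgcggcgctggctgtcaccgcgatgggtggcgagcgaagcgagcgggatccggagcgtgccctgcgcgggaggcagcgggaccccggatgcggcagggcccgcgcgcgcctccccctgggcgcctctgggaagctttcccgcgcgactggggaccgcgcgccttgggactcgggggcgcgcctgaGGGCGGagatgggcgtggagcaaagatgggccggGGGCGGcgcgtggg
Cdkn2a, second start (chr4:89282193-89282442, minus strand): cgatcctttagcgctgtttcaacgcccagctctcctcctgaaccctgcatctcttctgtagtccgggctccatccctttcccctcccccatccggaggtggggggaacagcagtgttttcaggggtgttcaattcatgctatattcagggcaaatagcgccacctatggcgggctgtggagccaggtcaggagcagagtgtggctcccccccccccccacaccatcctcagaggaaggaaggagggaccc
Cdkn2b (chr4:89311033-89311282, minus strand): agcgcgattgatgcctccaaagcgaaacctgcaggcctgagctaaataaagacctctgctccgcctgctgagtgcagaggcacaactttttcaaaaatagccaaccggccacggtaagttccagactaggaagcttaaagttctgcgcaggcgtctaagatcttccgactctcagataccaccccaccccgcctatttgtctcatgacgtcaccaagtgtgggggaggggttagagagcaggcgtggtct
Cxcl1 (chr5:90890995-90891244, plus strand): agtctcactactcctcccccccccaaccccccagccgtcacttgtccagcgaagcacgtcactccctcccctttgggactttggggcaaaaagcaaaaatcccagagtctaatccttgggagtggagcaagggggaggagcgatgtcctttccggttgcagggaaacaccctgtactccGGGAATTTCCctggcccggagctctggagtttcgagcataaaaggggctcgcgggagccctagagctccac
Il6 (chr5:30012864-30013113, plus strand): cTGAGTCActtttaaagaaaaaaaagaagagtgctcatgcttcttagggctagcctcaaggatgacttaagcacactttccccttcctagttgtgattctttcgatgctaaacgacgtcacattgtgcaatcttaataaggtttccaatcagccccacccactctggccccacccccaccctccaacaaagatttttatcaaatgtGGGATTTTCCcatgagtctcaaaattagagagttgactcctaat
The AP-1 letters of *Il6* began 249 bases before its start and the NF-kappaB letters 44 bases before it. The NF-kappaB letters of *Cxcl1* began 71 bases before its start, and the windows of *Apod*, of *Cdkn2b* and of the second *Cdkn2a* start held none of the 3 motifs. *Cdkn2a* lies at chr4:89274471-89294653 and *Cdkn2b* at chr4:89306299-89311039, both on the minus strand of GRCm38 (GENCODE M21, which held 32158 of the 32285 identifiers). *Cdkn2a* encodes the cell cycle inhibitor p16INK4a and, from another first exon, p19ARF, and *Cdkn2b* the related inhibitor p15INK4b. The counts are from 3′ ends, which cannot tell the transcripts of the 2 *Cdkn2a* starts apart.

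The label was checked against its markers. Levels are CPM, the UMIs of a gene in each 1000000 UMIs of a profile: those of all cells of a kind were summed per replicate and scaled to the size of that profile after TMM normalization. Because each transcript is counted once at its 3′ end, levels of different genes need no division by length. The summed profiles of *Smoc2* fibroblasts held 1371859 and 1867915 UMIs, with medians of 10858.5 and 11424.5 UMIs per cell and 4.49% and 4.30% mitochondrial UMIs. They were set beside fibroblasts chosen by the mirrored rule, with at least 2 times as many UMIs of the *Igf2* set (97 and 103 cells, *Igf2* fibroblasts), beside perineurial-like cells (48 and 86), and beside 6 other kinds of cells gated the same way (mural, endothelial, macrophage, satellite glial, and myelinating and non-myelinating Schwann cells, 8492 cells together). Median mitochondrial shares were higher than in *Smoc2* fibroblasts, at 6.85% and 6.93% in *Igf2* fibroblasts and 8.94% and 7.72% in perineurial-like cells. Median UMIs per cell were also higher, at 13793 and 13635 in the former and 12761.5 and 12817.5 in the latter. No barcode of a *Smoc2* fibroblast occurred among the barcodes of the other replicate, while 18 barcodes of the whole set did.

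The genes that chose the cells are given as a description, without a test. In replicates 1 and 2, *Gpc3* reached 2820 and 2492 CPM, *Tgfbi* 1839 and 1907 CPM, *Ccl11* 1663 and 1422 CPM, and *Smoc2* 1502 and 1341 CPM. *Pdgfra*, the PDGF receptor that marks most fibroblasts, stood at 341 and 315 CPM, against 125 and 120 CPM in *Igf2* fibroblasts. Of the 4 genes, *Ccl11* differed most between the fibroblasts (11.5 and 10.9 CPM in *Igf2* fibroblasts) and *Smoc2* least (891 and 781 CPM there). In perineurial-like cells *Smoc2* was nearly as high, at 1215 and 1326 CPM, so the name rests on the sum of the 4 genes and not on *Smoc2* alone. The other side of the rule was low: *Igf2*, the growth factor, stood at 9.12 and 1.63 CPM against 1534 and 1207 CPM in *Igf2* fibroblasts, *Sfrp4*, a Wnt antagonist, at 30.4 and 21.8 CPM against 3391 and 4606 CPM, and *Bnc2*, a zinc finger factor, at 160 and 168 CPM against 1291 and 1187 CPM. *Col1a1*, a type I collagen chain that the rule reads in both kinds, stood at 2766 and 2187 CPM, below the 4174 and 4577 CPM of *Igf2* fibroblasts.

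All 4 marker genes were detected together in 111 of 126 and 151 of 168 cells, and 3 of them in 15 cells of each replicate. The sum of the 4 markers had a median of 73.5 and 69 UMIs and a lowest value of 9 and 5, above the minimum of 4, and no cell missed the gate with 3 UMIs alone. The ratio limit lay closer to the cells: 2 and 4 members had a ratio under 3, and 3 and 5 fibroblasts outside had one from 1 to under 2. No UMI of the *Igf2* set was found in 43 and 65 members. The limits on genes of other kinds of cells lay closer still. *Scn7a*, a marker of nonmyelinating Schwann cells with a limit of 2 UMIs, was found in 79 and 91 members, and 44 and 72 members had no UMI of any of the 5 genes with this limit. These were 62.7% and 54.2% of members with *Scn7a*, against 13.4% and 15.5% of *Igf2* fibroblasts. How many fibroblasts of this kind the *Scn7a* limit kept out was not counted. Of all 383 and 512 fibroblasts, 253 and 298 had under 3 perineurial UMIs. Among these, 30 and 27 met neither rule and entered no comparison. Fibroblasts with at least 3 perineurial UMIs entered only if they were perineurial-like cells.

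Genes that the rule did not read were checked as well. *Dcn*, the collagen-binding proteoglycan decorin, stood at 32621 and 30299 CPM, and in the 6 non-fibroblast kinds its highest level was 291 CPM. *Apod*, which encodes the lipid carrier apolipoprotein D, was the other leading transcript, at 56956 and 60014 CPM. Per cell, *Apod* took a median of 5.69% and 5.28% of all UMIs, from 0.137% to 14.9% in replicate 1 and from 0 to 14.1% in replicate 2. Markers of other kinds of cells were low and are given by the sum of each list: leukocyte markers 44.8 and 71.8 CPM (56437 and 59694 CPM in macrophages), endothelial markers 48.6 and 64.7 CPM (7512 and 8030 CPM in endothelial cells), mural markers 69.9 and 99.6 CPM (8532 and 9716 CPM in mural cells), neuronal markers 44.1 and 89.2 CPM, and Schwann markers 539 and 645 CPM (49506 and 53393 CPM in myelinating Schwann cells). The list of satellite glial markers summed to 5984 and 5810 CPM, most of it *Apoe* (4489 and 4467 CPM), against 83202 and 81005 CPM in satellite glia. The channel gene *Kcnj10*, which was also read to choose the satellite glia, stood at 3.8 and 2.18 CPM in *Smoc2* fibroblasts and at 277 and 267 CPM in satellite glia. In the RNA of empty droplets *Apoe* stood at 41268 and 40449 CPM. The perineurial list summed to 1586 and 1199 CPM, 1279 and 937 CPM of it *Igfbp6*, against 8670 and 6890 CPM in perineurial-like cells.

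**Figure D1:**
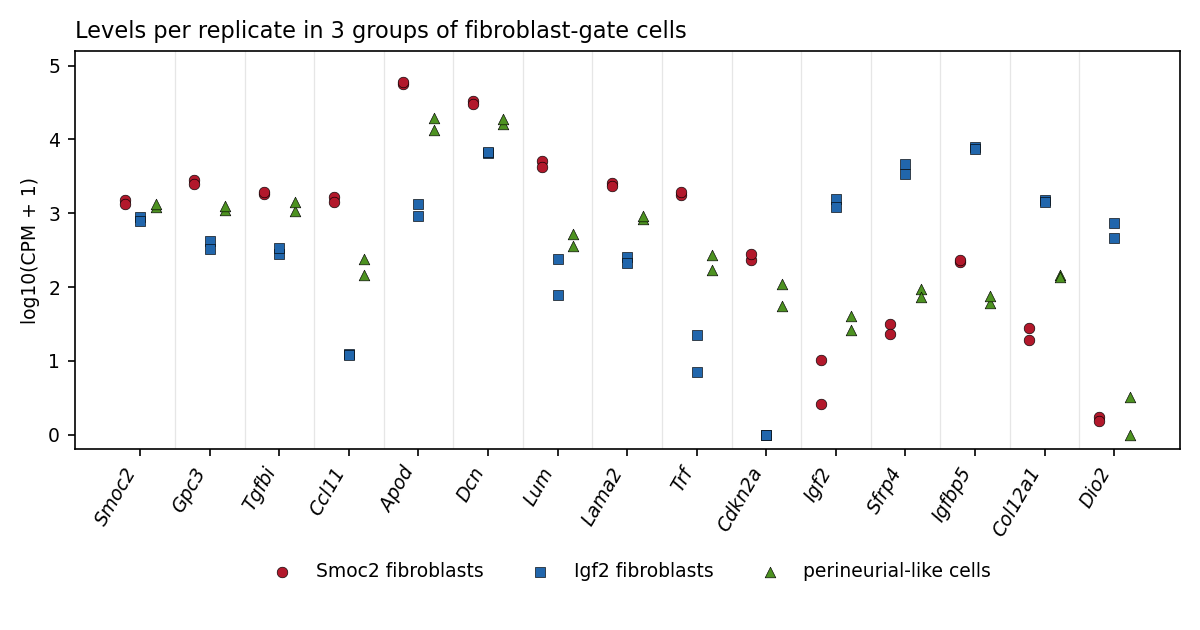
Levels of 15 genes as log10(CPM + 1) in each replicate (2 points per gene and kind of cell) in *Smoc2* fibroblasts (circles), *Igf2* fibroblasts (squares) and perineurial-like cells (triangles). *Apod* and *Dcn* lie highest in *Smoc2* fibroblasts, *Cdkn2a* is at 0 in both *Igf2* profiles, and *Igf2*, *Sfrp4* and *Dio2* show the opposite order.

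The first comparison asked which transcripts go with this rule among fibroblasts, by setting *Smoc2* against *Igf2* fibroblasts with edgeR's quasi-likelihood test over 16901 genes in 18 profiles (9 kinds of cells in 2 replicates), with Benjamini-Hochberg adjustment and a threshold of 0.05. The p-values set the differences against the spread between the 2 samples only, and because cells were sorted by correlated genes they do not show on their own that the kinds are distinct. Of all genes, 10.4% were called higher in *Smoc2* fibroblasts (1763) and 9.28% lower (1569). *Apod* was the largest in absolute level, 903 and 1340 CPM in *Igf2* fibroblasts, a log2 fold change of 5.70 ± 0.58 (SE, adjusted p = 2.6e-07).

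Both cell cycle inhibitors at chromosome 4 were near absent from *Igf2* fibroblasts. *Cdkn2a* stood at 231 and 281 CPM in *Smoc2* fibroblasts (820 UMIs) and had no UMI in any *Igf2* fibroblast, which puts it at least 263.5-fold higher against a limit of 3 counts over the group. *Cdkn2b* stood at 215 and 237 CPM against 2.02 and 0.642 CPM, a log2 fold change of 7.41 ± 0.41 (adjusted p = 7.1e-11). The profiles did not overlap for either gene, and both were also higher than in each of the 8 other kinds of cells, with 53.9 and 109 CPM of *Cdkn2a* in perineurial-like cells as the nearest. After each cell was thinned to 2000 UMIs, *Cdkn2a* was detected in 31.0% (interval 23.0 to 39.8%) and 33.9% (26.8 to 41.6%) of *Smoc2* fibroblasts, 65.9% and 69.0% without thinning. Among macrophages the thinned shares were 1.10% and 0.725%, at unthinned medians of 10828.5 and 10691.5 UMIs, and whether these shares are background was not tested. The 8 cell cycle genes of a fixed list, such as *Mki67* and *Top2a*, summed to 3.8 and 2.18 CPM, and 6 of the 8 had at most 3 UMIs in both kinds of fibroblasts.

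*Trf*, which encodes the iron carrier transferrin, stood at 1759 and 1953 CPM against 6.07 and 21.2 CPM in *Igf2* fibroblasts (log2 fold change 7.07 ± 0.28, adjusted p = 2.8e-12). It exceeded macrophages, the next highest kind, at 792 and 778 CPM. *A2m*, a broad protease inhibitor of plasma, had 429 and 483 CPM and a single UMI in *Igf2* fibroblasts, a ratio of 1400 with a counting interval from 250.9 to 55330. *Pla2g7*, a secreted phospholipase, *Gfra1*, the coreceptor for GDNF, *Chrm3*, a muscarinic acetylcholine receptor, and *Col9a2*, a cartilage-type collagen chain, ranged from 186 to 335 CPM in *Smoc2* fibroblasts and reached at most 3.21 CPM in *Igf2* fibroblasts. *Tenm2*, an adhesion protein of the teneurin family, stood at 1835 and 1637 CPM against 3.37 and 3.85 CPM, but at 2366 and 2482 CPM in perineurial-like cells, where the difference missed the threshold (log2 fold change -0.48 ± 0.32, adjusted p = 0.41). *Rbfox1*, a splicing factor, completed the group, at 1128 and 1678 CPM against 2.02 and 8.35 CPM.

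Among the genes lower in *Smoc2* fibroblasts, *Dio2*, the deiodinase that activates thyroid hormone, had 2 UMIs among all *Smoc2* fibroblasts and 737 and 457 CPM in *Igf2* fibroblasts, a ratio of 935.5 (counting interval 258.6 to 7731). *Gm26512*, a noncoding transcript whose start overlaps *Dio2* on the other strand, followed it with 1.52 and 1.63 CPM against 269 and 173 CPM, and whether counting kept strands apart is not stated. *Slc47a1*, an exporter of organic cations, stood at 2.28 and 9.79 CPM against 861 and 763 CPM (log2 fold change -6.93 ± 0.46, adjusted p = 7.6e-10), and *Slit2*, a secreted guidance cue, at 6.08 and 8.71 CPM against 819 and 715 CPM. *Npy1r*, *Prlr* and *Epha3*, receptors for neuropeptide Y, prolactin and ephrins, and the retinoic acid carrier *Crabp2*, also did not overlap, with at most 4.56 CPM in *Smoc2* fibroblasts. *Col12a1*, a collagen that coats fibrils, stood at 26.6 and 18 CPM against 1504 and 1395 CPM (log2 fold change -6.06 ± 0.28, adjusted p = 8.0e-12).

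Genes were then counted by lists of function, whose choice was made with results of these data known, so the counts describe the cells and carry no test of their own. Over all genes the median log2 fold change against *Igf2* fibroblasts was 0. The list of endoneurial fibroblast genes stood out: of 14 tested members 12 were called higher and 1 lower, with a median of 3.47. The factors *Osr2* (131 and 81.6 CPM against 2.02 and 0), *Sox9* (145 and 157 against 4.04 and 4.49), *Etv1* (257 and 207 against 5.39 and 8.99) and *Meox1* (109 and 96.3 against 5.39 and 0) did not overlap between the fibroblasts. So did the membrane lipid transporter genes *Abca8a* (1188 and 964 CPM against 87.6 and 73.8 CPM) and *Abca9* (392 and 361 against 45.8 and 44.3). *Spon2*, a secreted adhesion protein, was the member called lower, at 0.760 and 2.72 CPM against 18.9 and 39.8 CPM, and the Wnt inhibitor *Wif1* stood at 3.8 and 2.72 CPM against 0 and 6.42 CPM.

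The list of epineurial and adventitial genes was mixed, with 4 of 17 members called higher and 8 lower (median -0.79). Among those lower were *Pi16*, a peptidase inhibitor gene of adventitial fibroblasts (9.88 and 8.16 CPM against 473 and 225 CPM), *Ly6c1* (2.28 and 0.544 against 70.1 and 64.2), *Clec3b* (39.5 and 27.2 against 340 and 352) and *Comp*, a cartilage matrix protein (3.04 and 38.1 against 864 and 923). Among those higher were *Cd34*, a sialomucin (371 and 246 CPM against 135 and 149 CPM, log2 fold change 1.11, adjusted p = 4.2e-05), and *Thbs4*, a thrombospondin, which had 69 UMIs against none and was at least 22.18-fold higher. *Thbs4* was far higher in perineurial-like cells, at 384 and 356 CPM. *Fap*, a membrane protease, stood at 219 and 229 CPM against 189 and 164 CPM and missed the threshold (adjusted p = 0.16). It was called higher when only cells with few immediate early transcripts were kept (log2 fold change 0.76, adjusted p = 0.0056).

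**Figure D2:**
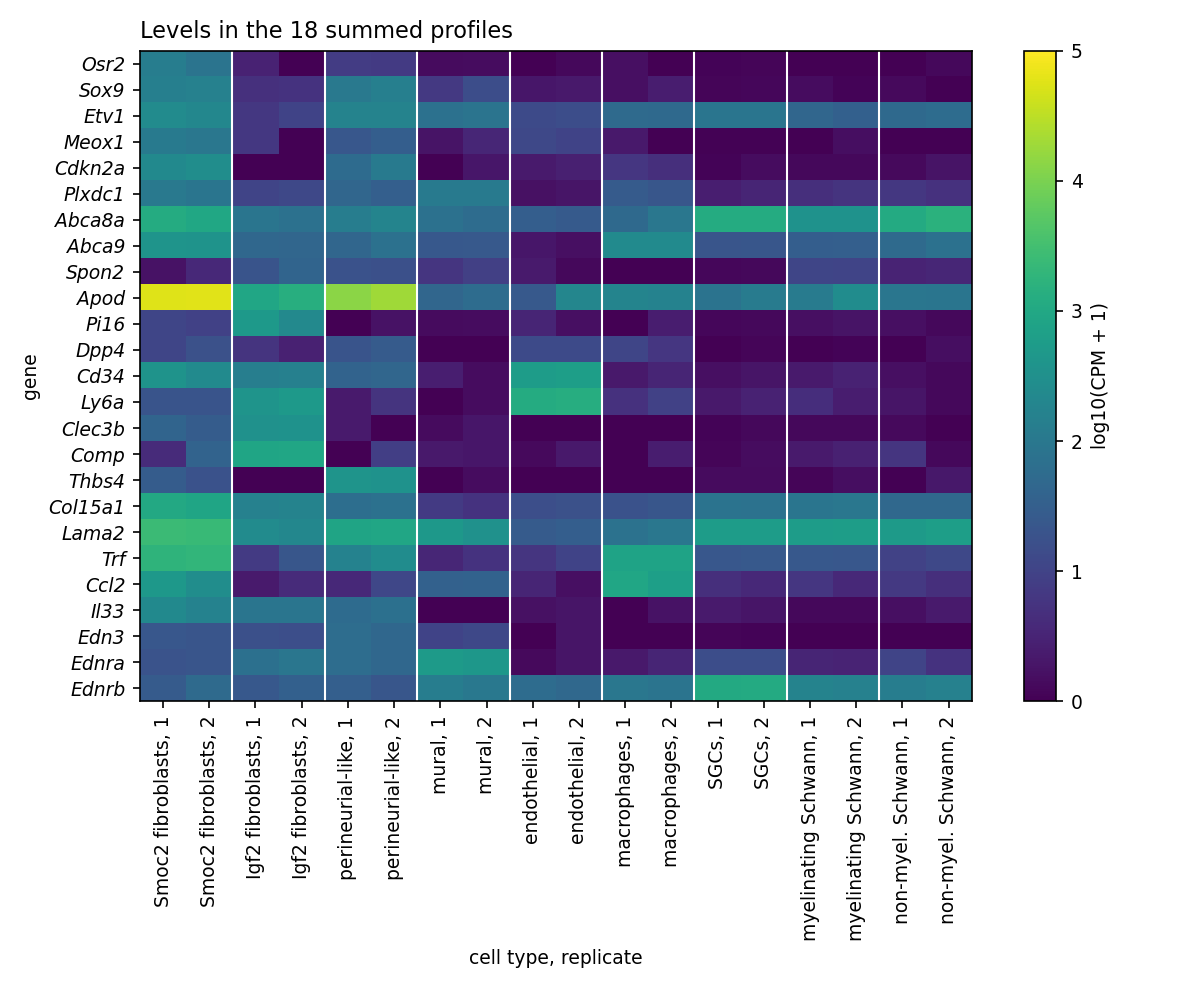
Levels of 25 genes (rows) as log10(CPM + 1), by color, in the 18 summed profiles, with 2 columns per kind of cell. The rows from *Osr2* to *Abca9* are bright in *Smoc2* fibroblasts and dark in *Igf2* fibroblasts, *Pi16*, *Ly6a*, *Clec3b* and *Comp* show the reverse, and *Ednrb* is brightest outside the fibroblasts.

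Matrix genes divided by kind of matrix. Of 15 tested collagens, 12 were called lower and 2 higher against *Igf2* fibroblasts (median -1.315). Their list held fibrillar and fibril-associated chains and also chains of types VI, VIII and XXVIII. *Col1a2*, a chain of type I collagen, stood at 2949 and 2547 CPM against 4189 and 4391 CPM (log2 fold change -0.64, adjusted p = 0.00056), *Col3a1* at 2288 and 1710 CPM against 4541 and 5399 CPM, and *Col14a1*, a fibril-associated chain, at 16.7 and 14.7 CPM against 406 and 418 CPM. Of 20 enzymes of collagen synthesis and crosslinking 9 were lower and 1 higher (median -0.76). *Lox*, lysyl oxidase, which crosslinks collagen and elastin, had 14.4 and 5.44 CPM against 395 and 460 CPM (log2 fold change -5.53 ± 0.25, adjusted p = 7.5e-12), while the collagen chaperone *Serpinh1* stood at 888 and 860 CPM against 1022 and 1214 CPM (adjusted p = 0.13). Elastic fiber genes followed the same direction, 11 of 18 lower and 4 higher (median -1.30), with *Eln*, elastin, at 11.4 and 16.9 CPM against 275 and 485 CPM. *Fbn2*, which encodes a microfibril protein, went the other way, 171 and 180 CPM against 0.674 and 10.9 CPM (log2 fold change 4.89 ± 0.36).

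Basement membrane genes showed the opposite balance. Of 18 members 12 were called higher in *Smoc2* fibroblasts and 6 missed the threshold (median 1.80, 2 of the 18 with at most 3 UMIs in both kinds). *Lama2*, the laminin chain of the Schwann cell and muscle basement membrane, stood at 2572 and 2370 CPM against 254 and 209 CPM (log2 fold change 3.41 ± 0.15, adjusted p = 7.6e-12), and it was higher than in each of the 8 other kinds in both replicates. *Lamb1* (191 and 120 CPM against 10.8 and 16.1 CPM), *Lamc3* (76.7 and 92.5 against 0 and 3.85) and *Lamc1* (475 and 425 against 94.4 and 95.7) encode other laminin chains. *Col15a1*, which bridges basement membrane and fibrils, stood at 1052 and 852 CPM against 159 and 172 CPM. The type IV collagen chains *Col4a1* and *Col4a2* differed less, with log2 fold changes of 0.68 each (adjusted p = 0.016 and 0.0037), and *Lama4* and *Lamb2* missed the threshold (adjusted p = 0.88 for both).

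Proteoglycans were called in both directions, 6 of 15 higher and 6 lower (median 0.38). *Lum*, lumican, stood at 5015 and 4247 CPM against 240 and 75.8 CPM (log2 fold change 4.88 ± 0.34, adjusted p = 1.6e-09) and *Vcan*, versican, at 310 and 274 CPM against 41.1 and 47.5 CPM. *Dcn* was 6434 and 6676 CPM in *Igf2* fibroblasts (log2 fold change 2.26 ± 0.48, adjusted p = 0.0017), a call that was lost when the RNA of empty droplets was subtracted (adjusted p = 0.0732, log2 fold change 2.28). *Bgn*, biglycan, and *Aspn*, asporin, were lower, with 388 and 380 CPM against 1506 and 1692 CPM and 9.88 and 21.2 CPM against 456 and 313 CPM. Of 19 matrix proteases and inhibitors 5 were higher, including the gelatinase *Mmp2* (460 and 469 CPM against 90.3 and 82.8 CPM), and 8 lower, including the inhibitor *Timp1* (13.7 and 12.5 CPM against 175 and 195 CPM).

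Lipid genes were the next list with calls mostly on one side, 9 of 16 higher and 1 lower (median 1.77, or 1.64 with genes at 0 UMIs in a group set to the limit of 3 counts and genes with at most 3 UMIs in both left out). Besides *Apod*, *Lpl*, the lipoprotein lipase, stood at 213 and 211 CPM against 2.02 and 3.85 CPM (log2 fold change 6.15, adjusted p = 8.6e-10) and *Abca6* at 307 and 216 CPM against 6.74 and 5.78 CPM. *Apoe* was higher at 4489 and 4467 CPM against 1610 and 2506 CPM (log2 fold change 1.12 ± 0.17, adjusted p = 6.6e-05), and had a larger log2 fold change of 2.29 that missed the threshold after subtraction of empty-droplet RNA (adjusted p = 0.262). *Abca1*, the cholesterol exporter, was the member called lower, at 76.7 and 76.2 CPM against 156 and 141 CPM.

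Ligands of growth factor pathways were more often lower. Of 26 neurotrophic and growth factor ligands 12 were called lower and 3 higher (median -1.18, or -0.86 with genes at 0 UMIs at their limit), and of 34 BMP, TGF-beta and Wnt genes 17 lower and 7 higher (median -1.56). *Angpt1*, the ligand of the endothelial receptor TIE2, stood at 22.8 and 2.72 CPM against 741 and 456 CPM, and *Igf1* at 343 and 337 CPM against 1567 and 977 CPM. Among the ligands called higher were *Mdk*, midkine (347 and 342 CPM against 123 and 150 CPM), and *Pros1*, a ligand of TAM receptors (192 and 192 against 44.5 and 35.3). *Bmp5* (420 and 355 CPM against 27.6 and 24.4 CPM), *Bmp7* (62.3 and 57.7 against 0.674 and 1.93) and *Wnt5a* (157 and 181 against 33.0 and 19.9) were among the higher genes of the second list. Of 8 IGF binding proteins and receptors 6 were lower, with *Igfbp5* at 214 and 229 CPM against 7954 and 7496 CPM (log2 fold change -5.12 ± 0.28, adjusted p = 6.2e-11).

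Smaller lists had calls on both sides. Of 14 retinoid genes 4 were higher and 6 lower (median -0.82, or -0.05 with genes at 0 UMIs at their limit). *Cyp26b1*, which breaks down retinoic acid, stood at 63.8 and 118 CPM with a single UMI in *Igf2* fibroblasts, and *Rarres2*, the chemerin gene, at 656 and 554 CPM against 119 and 106 CPM. Of 12 complement genes 2 were higher and 6 lower (median -1.72, or -1.47 with genes at 0 UMIs at their limit). Of 18 membrane transporters 4 were higher, among them *Slc1a3*, a glutamate transporter (492 and 459 CPM against 68.1 and 50.1 CPM), and 7 lower. Among 34 mesenchymal transcription factors 9 were higher and 15 lower, or 10 and 15 with the replicate block. *Tbx18* stood at 80.5 and 53.3 CPM against 1.35 and 0.642 CPM, and *Foxp1* at 207 and 186 CPM against 1656 and 1552 CPM. Of 11 contractile and myofibroblast genes 3 were higher and 1, *Tagln*, lower (3.8 and 8.16 CPM against 121 and 134 CPM), or 2 lower with the replicate block.

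**Figure D3:**
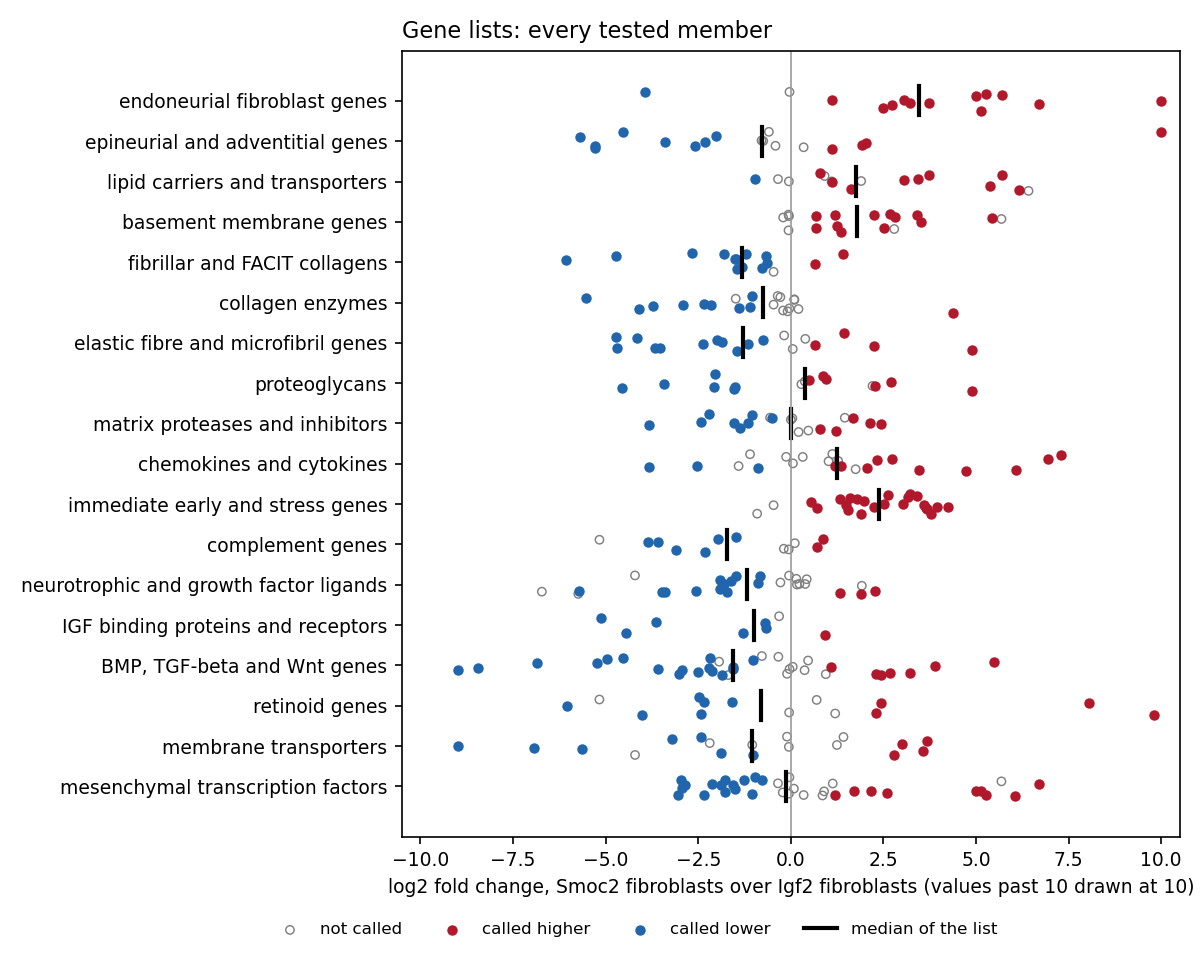
Log2 fold change of every tested gene of each list, *Smoc2* over *Igf2* fibroblasts, with genes called higher in red, called lower in blue and not called as open circles, and the list median as a black bar. Values past 10 are drawn at 10, and fitted values of genes with 0 UMIs in a group are not bounds. The endoneurial, lipid, basement membrane and immediate early lists lie mostly to the right and collagens to the left. The collagen list also holds chains of types VI, VIII and XXVIII.

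Of 22 tested chemokines and cytokines 10 were called higher against *Igf2* fibroblasts and 3 lower (median 1.23). *Ccl2*, the monocyte chemoattractant, stood at 465 and 275 CPM against 1.35 and 3.21 CPM (log2 fold change 7.31 ± 0.45, adjusted p = 2.9e-10), below macrophages at 893 and 650 CPM. Its UMIs were concentrated: a single cell held 42.7% of them in replicate 1 (261 of 612) and another 29.8% in replicate 2 (151 of 506). The chemokine gene *Ccl7*, a neighbor of *Ccl2* and *Ccl11* on chromosome 11, stood at 400 and 355 CPM against 8.09 and 3.21 CPM. The neutrophil attractant *Cxcl1* reached 555 and 970 CPM against 8.09 and 4.49 CPM, and the cytokine gene *Il6* 75.2 and 65.3 CPM against 2.02 and 3.21 CPM. *Il33*, an alarmin kept in nuclei, was higher than in each of the 8 other kinds of cells in both replicates, at 239 and 163 CPM against 86.3 and 88.0 CPM in *Igf2* fibroblasts. *Cxcl14* was lower (4.56 and 10.9 CPM against 109 and 121 CPM), and *Cxcl12* stood at 131 and 127 CPM against 119 and 88.0 CPM (adjusted p = 0.19).

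Immediate early genes, transcribed within minutes of a stimulus and known to be induced while tissue is dissociated, moved with this group. Of 24 members of the list of immediate early and stress genes 22 were called higher against *Igf2* fibroblasts and 2, *Hspa1a* and *Hspa1b*, missed the threshold (median 2.38), and 18 were called higher against perineurial-like cells. With the replicate block *Hspa1b* was called lower against *Igf2* fibroblasts (edgeR, adjusted p = 0.0108, against 0.109 without it). Against perineurial-like cells the block gave 20 higher, adding *Hspa1a* (adjusted p = 0.00374), *Hspa1b* (0.0422) and *Hspa8* (0.0472) and losing *Egr2* (0.0531). *Fos* stood at 5493 and 6518 CPM against 690 and 662 CPM (log2 fold change 3.15, adjusted p = 2.1e-10) and *Cebpd*, a factor of inflammatory signaling, at 2843 and 2994 CPM against 154 and 221 CPM. The list summed to 25535 and 28993 CPM, compared with 4032 and 4893 CPM in *Igf2* fibroblasts and 29285 and 29131 CPM in macrophages, the highest of the 9 kinds. Per cell, 16 of these genes took a median of 151 and 187 per 10000 UMIs in *Smoc2* fibroblasts, with quartiles of 22.8 and 307 in replicate 1 and 34.5 and 363 in replicate 2, against medians of 18 and 21.4 in *Igf2* fibroblasts. Under 50 per 10000 lay 48 of 126 and 49 of 168 *Smoc2* fibroblasts (38.1% and 29.2%) but 81.4% and 80.6% of *Igf2* fibroblasts, and 21 and 31 *Smoc2* fibroblasts lay between 25 and 100.

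The comparison was repeated with the cells under 50 alone, a limit chosen after the data were seen, which called 5.95% of all genes higher and 5.85% lower. *Cxcl1* then fell below the threshold (log2 fold change 2.87, adjusted p = 0.093), as did *Fos* (0.18, adjusted p = 0.59), and 4 of the 24 immediate early genes were called higher and 1 lower. In place of 10 chemokines and cytokines 6 were higher, among them *Ccl2* (log2 fold change 6.96 ± 0.52, adjusted p = 3.3e-09). Of the endoneurial list 11 of 13 tested genes were then called higher and 1 lower, of the basement membrane list 10 of 18 higher and 0 lower, and of the lipid list 8 of 16 higher and 2 lower. Other lists had fewer lower calls than over all cells, 10 against 17 for the BMP, TGF-beta and Wnt genes and 8 against 12 for the neurotrophic and growth factor ligands. The membrane transporters had 4 against 7, and the IGF binding proteins and receptors 4 against 6. The complement genes also had 4 against 6, and their median moved from -1.72 to -0.64. The epineurial list had 8 lower calls in both, and its median moved from -0.79 to -1.77. Among *Smoc2* fibroblasts themselves, *Cxcl1* stood at 6.65 and 67.6 CPM (here without TMM) under the limit and at 791 and 1231 over it, *Il6* at 2.22 and 0 against 107 and 84.3, and *Cebpd* at 392 and 385 against 3873 and 3744. *Ccl2* was also lower under the limit, 164 and 153 against 584.5 and 308, and the single cells with 261 and 151 of its UMIs lay over it. *Ccl7* stood at 173 and 246 against 487 and 381. *Ccl11* differed little, 1416 and 1469 against 1684 and 1377, and so did *Cdkn2a*, 242 and 241 against 212 and 287. Because the groups were cut by these transcripts, the values are a description, and the part that dissociation had in them was not tested.

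**Figure D4:**
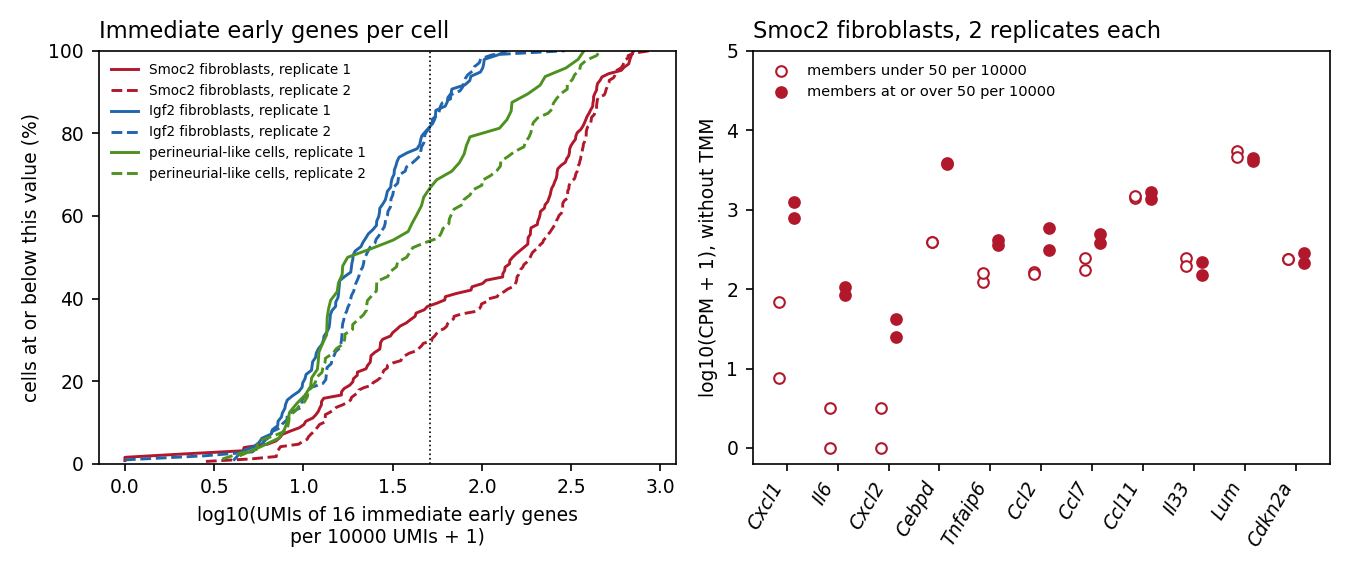
Left, the cumulative share of cells (percent) against log10 of immediate early UMIs per 10000 plus 1 in each replicate of 3 kinds of cells, with the limit of 50 as a dotted line. Right, log10(CPM + 1) without TMM in *Smoc2* fibroblasts under and over the limit, 2 replicates each. *Cxcl1*, *Il6* and *Cebpd* are higher over the limit in both replicates, and *Ccl11* and *Cdkn2a* differ little.

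Against perineurial-like cells, the nearest barrier cells, 7.53% of genes were called higher in *Smoc2* fibroblasts (1273) and 6.56% lower (1108). Higher were *Vcan* (310 and 274 CPM against 16.2 and 17.5 CPM, log2 fold change 4.10 ± 0.22, adjusted p = 2.8e-10), *Tnfaip6*, a hyaluronan-binding protein induced in inflammation (289 and 364 against 26.9 and 5.33), *Gfra1* and *Chrm3*. *Myoc*, the secreted glycoprotein myocilin, was higher too (846 and 445 CPM against 32.3 and 44.2 CPM), and stood at 673 and 630 CPM in *Igf2* fibroblasts, where the profiles overlapped. *Angptl7*, a secreted angiopoietin-like protein, stood at 397 and 129 CPM against 8.08 and 7.61 CPM, with 37.6% of its UMIs in replicate 2 from a single cell. Among the genes called lower were *Lypd2* (2.28 and 1.63 CPM against 345 and 295 CPM), *Ntng1*, a netrin-G (6.08 and 5.44 against 683 and 616), *Itga6*, a laminin receptor (7.60 and 14.7 against 379 and 439), and the Wnt antagonist *Sfrp5* (13.7 and 12.5 against 532 and 385). The endoneurial list had 10 of 14 called higher and 1 lower. *Sox9* (104 and 145 CPM in perineurial-like cells, adjusted p = 0.51) and *Etv1* (171 and 168 CPM, adjusted p = 0.051, or 0.0477 with the replicate block) missed the threshold. *Apod* stood at 13553 and 19737 CPM there (log2 fold change 1.81 ± 0.48, adjusted p = 0.014), and *Dcn* at 16345 and 18649 CPM (adjusted p = 0.29). The call of *Apod* was lost with mitochondrial shares up to 10% (log2 fold change 1.45, adjusted p = 0.0607), with at least 10 *Col1a1* and *Pdgfra* UMIs per 10000 (1.30, adjusted p = 0.101) and after subtraction of empty-droplet RNA (1.85, adjusted p = 0.454). Of 15 collagens 7 were called higher and 2 lower here, or 7 and 1 with the replicate block.

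Against the mean of the 6 other kinds of cells, 19.6% of genes were called higher and 14.6% lower. Among the genes called higher were *Apod* (log2 fold change 9.07 ± 0.30), *Dcn* (8.91 ± 0.30), *Il33* (9.17 ± 0.21), *A2m* (8.77 ± 0.26) and *Angptl7* (10.19 ± 0.38), all with adjusted p at or below 7.3e-14. *Scara5*, a scavenger receptor for ferritin, was called higher at 251 and 224 CPM (8.85 ± 0.19), and stood at 278 and 295 CPM in *Igf2* fibroblasts (adjusted p = 0.29).

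Endothelin genes were the subject of the study. The ligand gene *Edn3* stood at 21.3 and 19.6 CPM, against 15.5 and 14.8 CPM in *Igf2* fibroblasts (adjusted p = 0.51) and 60.6 and 45.7 CPM in perineurial-like cells (log2 fold change -1.36, adjusted p = 0.011). The latter call was lost under 4 alternatives, 3 on the choice of cells and 1 on immediate early transcripts, with log2 fold changes from -1.82 to -0.77 and adjusted p from 0.0565 to 0.298. No UMI of *Edn1* or *Edn2* was found in *Smoc2* fibroblasts. The receptor gene *Ednra* was lower than in *Igf2* fibroblasts, 18.2 and 19.6 CPM against 68.8 and 89.9 CPM (log2 fold change -2.06 ± 0.24, adjusted p = 1.8e-06). It was also lower than the 60.6 and 44.9 CPM of perineurial-like cells (log2 fold change -1.43, adjusted p = 0.0011), a call lost among cells with few immediate early transcripts (-1.14, adjusted p = 0.0892). *Ednrb* stood at 25.8 and 52.2 CPM, with 55.9% and 28.1% of its UMIs from a single cell in each replicate, and was detected after thinning in 2.38% and 5.36% of cells, no more than the 6.04% and 7.97% of macrophages, so no expression was read from it. The converting enzyme *Ece1* stood at 71.4 and 74.5 CPM against 115 and 77.7 CPM in *Igf2* fibroblasts (adjusted p = 0.10). It was higher than the 28.3 and 33.5 CPM of perineurial-like cells (log2 fold change 1.22, adjusted p = 0.00036), a call lost with at least 10 *Col1a1* and *Pdgfra* UMIs per 10000 (0.60, adjusted p = 0.136).

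*Smoc2* fibroblasts were not uniform. Variation among members was measured as variance over mean of UMIs per cell after thinning to 2000 UMIs, where counting alone gives about 1. Among 1446 genes with a mean of at least 0.2 UMIs in both replicates, the median ratio was 1.15 and 1.16, and 90 genes exceeded 2 in both. The 15 highest were ranked by the lower of both replicates, and *Gm42418* came first (56.0 and 51.6), followed by *Apod* (27.2 and 27.3). Also among the 15 were the immediate early genes *Fos* (11.1 and 10.7), *Jun* (7.55 and 7.31) and *Junb* (7.48 and 6.79), and *Cebpd* (10.1 and 7.79). The chemokines *Ccl2* (34.6 and 8.15) and *Cxcl1* (6.42 and 9.46) were there too. *Dcn* (8.54 and 7.91), *Gsn*, *Cst3*, *Apoe*, *Igfbp5*, *Mt1* and *Malat1* completed the 15. At the same relative spread this ratio rises with the mean of a gene, so the order favors abundant transcripts. *Apod* ran from 2 to 342 UMIs per thinned cell in replicate 1, with a median of 109.5, and from 0 to 282 in replicate 2, with a median of 104.5. *Cxcl1* was detected in 28.6% and 29.8% of thinned cells and *Ccl2* in 13.5% and 13.1%, while endothelial cells had *Cxcl1* in 4.40% and 3.05% and *Ccl2* in 0.629% and 0% (0 of 164 cells, an upper interval limit of 2.22%). Thinned macrophages had *Cxcl1* in 7.14% and 13.0%, and *Ccl2* in 26.4% and 26.1%, above the shares of *Smoc2* fibroblasts. Across cells, the sum of immediate early genes and that of *Ccl2*, *Ccl7*, *Cxcl1*, *Cxcl2* and *Il6* had a Spearman rho of 0.421 in replicate 1 (126 cells) and 0.409 in replicate 2 (168 cells), and *Apod* with immediate early genes -0.136 and -0.0286. The cells of a replicate share their library, so these are descriptions.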

How the data were processed

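Live cells of 2 DRG samples were captured with the 10x Genomics 3′ kit. Per the file headers and the submitters' notes, the authors aligned reads and made counts with Cell Ranger (7.1.0 in the headers) on mm10; the annotation is not given in the sources used here. The deposited values are raw UMI counts per gene and barcode (119101743 and 128668771 UMIs over 1762921 and 1832899 barcodes), without normalization or selection of cells. Computed here were the gates, the sums per replicate and kind of cell, and edgeR 4.0.16 (R 4.3.3, TMM, glmQLFit and glmQLFTest, all 18 profiles in one fit) over the 16901 genes that reached 10 UMIs in 2 or more profiles. Genes that any gate reads (26) got no test. SE is the log2 fold change over the square root of F. Doublets were treated only by the limits on transcripts of other cells, and no cell caller was run, so barcodes past the limits stand in for cells.

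The members and the 29 gene lists were chosen with earlier results of these data known. Genes named are the 12 with the largest change in each direction against *Igf2* fibroblasts and the 8 in each other comparison, among called genes without overlap that reach 100 CPM, the 2 highest and the 2 most changed of each list, the 7 endothelin genes, the 15 most variable genes and the genes of the rule. Other list members were picked after their values were seen, and some genes that the rule names are not reported here. In counts simulated for *Smoc2* against *Igf2* fibroblasts, 32% of genes changed 1.5-fold were recovered, 78% at 2-fold and 100% at 3-fold, with 7.19% of calls on unchanged genes. Profiles with the same number share a dissociation and are paired through it, and their deviations had a median correlation of 0.0373 over 36 pairs (from -0.0414 to 0.256). The study describes the samples as biological replicates, the number of animals in each is not given in the sources used here, and p-values measure the spread between these 2 samples. Alternatives varied the gates, normalization, test, filter, block, number of cells, empty-droplet RNA (barcodes ranked 45000 to 90000, an estimated 3.54% and 5.70% of the *Smoc2* profiles) and thinning, with DESeq2 1.42.0 among them. Scripts ran in Python 3.11.15.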

Additional observations from a re-analysis of the deposited data

How the results depend on the processing

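Most settings moved the counts by less than 1.5 times. Asking for 0 UMIs of the genes of other kinds of cells left 116 of 294 *Smoc2* fibroblasts. Keeping only fibroblasts under 50 immediate early UMIs per 10000, a setting chosen after seeing the data, gave 1004 genes higher and 986 lower against *Igf2* fibroblasts, 685 and 715 against perineurial-like cells, and 2115 higher against the 6 other kinds. It leaves fewer cells, 48 and 49, and 935 of the 1763 genes higher against *Igf2* fibroblasts were called higher again, while 10 were called lower. Of the 3317 genes higher against the other kinds 57 were then called lower, among them *Fos* (log2 fold change -3.15), *Jun* (-2.60) and *Btg2* (-1.51), while *Cxcl1* there (-0.08) and *Fos* against perineurial-like cells (-0.34) changed sign without a call. The limit was not applied to the 6 other kinds, so the fall of immediate early genes below them follows from the cut and tests nothing. Against perineurial-like cells, 715 genes were lower with mitochondrial shares up to 10% and 710 with at least 10 *Col1a1* and *Pdgfra* UMIs per 10000, and the cause was not tested. With the replicate block 1751 genes were higher and 1546 lower against *Igf2* fibroblasts, 1261 and 1078 against perineurial-like cells, and 3297 and 2449 against the other kinds. Of the 123 tested genes picked by the naming rule, the block ended the call of *Cadm2* against *Igf2* fibroblasts (adjusted p = 0.0507) and that of *Emcn* against perineurial-like cells (0.0646), and added 5 calls in the last 2 comparisons. Without a replicate the fit has no residual degrees of freedom, so only values were computed. Without replicate 1 or 2, 53 and 63 genes moved by more than 1 SE against *Igf2* fibroblasts, and 64 and 52 did not. Against perineurial-like cells 44 and 65 moved, and 73 and 50 did not. Against the other kinds 48 and 69 moved, and 69 and 46 did not. The rest of the 123 genes had no value, and no called gene with a value changed direction. DESeq2 in place of edgeR called 1725 higher and 1538 lower against *Igf2* fibroblasts. Drawing equal numbers of cells was run against *Igf2* fibroblasts and perineurial-like cells only. Of the 15 most variable genes, 13 stayed among the 15 at 5000 UMIs. Groups of 2 samples allow no test for an outlying sample.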
